A study of Mus musculus with 2 samples.

Results

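The 6 genes described here are Klf2, Klf4, Klf6, Klf9, Klf10 and Klf13, which encode zinc finger transcription factors of the Krüppel-like family. They were taken by symbol from 31055 features, and all 6 were measured in both libraries. The libraries are droplet-based single-cell RNA sequencing libraries of endothelial cells sorted from orthotopic tumors, 1 library per tumor model. Cells in suspension were depleted of CD45, EpCAM, Ter119, podoplanin and Annexin V positive cells. Both used wild-type female C57BL6 mice that received 100000 tumor cells at 6 weeks of age, and tumors were taken after 10 days. PyMT is a mammary cancer line from tumors of MMTV-PyMT mice, and KPC is a pancreatic cancer line whose mice of origin carried, among other alleles, p48-Cre and p53 m/m. Digestion took 30 min at 37 °C. DNase I was used at 20 µg/mL, and collagenase D at 400 U/mL for PyMT and 500 U/mL for KPC, so tumor model and digestion cannot be told apart. How many mice entered each library is not stated in the sources used here.

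KLF2 and KLF4 are the best known flow-responsive transcription factors of endothelium. Steady laminar shear stress activates a kinase cascade through MEKK2 and MEKK3, MEK5 and ERK5, and ERK5 acts on MEF2 factors that drive both genes. The factors raise genes of a quiescent, anticoagulant endothelium such as Nos3 and Thbd, and lower inflammatory and vasoactive genes such as Vcam1, Sele and Edn1. KLF6 is an injury response factor, KLF9 is a known glucocorticoid target, KLF10 is an early target of TGF-beta, and KLF13 is widely expressed. Enzymatic dissociation also induces Klf genes together with the immediate early genes Fos and Jun, which encode subunits of the AP-1 factor, so the class and library comparisons are set beside Fos and Jun.

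In the GENCODE M21 annotation of GRCm38 (mm10), Klf2 lies at chr8:72319033-72321656 on the plus strand and Klf4 at chr4:55527143-55532466 on the minus strand. Klf6 lies at chr13:5861482-5870394, Klf9 at chr19:23141226-23168134, Klf10 at chr15:38291463-38300706 and Klf13 at chr7:63886351-63938915. All are protein coding. Klf13 overlaps E030018B13Rik, and Jun overlaps Junos, each on the opposite strand, so reads there are separable only where counting used strand.

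Of the 6 genes, 5 had an entry in RefSeq's promoter table for GRCm38.p6 (Klf2, Klf4, Klf6, Klf9 and Klf13), and the 250 bases before the start site were searched on both strands. The searched motifs were the MEF2 and CArG elements, the CRE (TGACGTCA), the AP-1 site (TGANTCA), the GC box (GGGCGG), the CACCC box (CACCC) and the TATA box (TATAAA). The stretches below are shown because the class pattern of Klf2 and its relation to Fos and Jun are the main results. Capitals mark the MEF2 match in Klf2 (chr8:72318899-72318998, plus strand) and Jun (chr4:95052223-95052322, minus strand), GC boxes in Klf4 (chr4:55532626-55532725, minus strand, 3 matches of which 2 share a base) and the AP-1 match in Klf9 (chr19:23141091-23141190, plus strand).
Klf2: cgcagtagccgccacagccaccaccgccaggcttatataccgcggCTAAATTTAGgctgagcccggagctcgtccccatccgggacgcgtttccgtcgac
Jun: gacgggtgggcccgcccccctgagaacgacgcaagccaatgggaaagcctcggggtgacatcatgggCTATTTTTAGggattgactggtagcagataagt
Klf4: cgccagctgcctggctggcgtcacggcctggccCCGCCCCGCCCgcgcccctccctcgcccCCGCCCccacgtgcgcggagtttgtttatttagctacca
Klf9: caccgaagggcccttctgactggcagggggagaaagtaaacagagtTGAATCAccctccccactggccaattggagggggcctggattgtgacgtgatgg

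The MEF2 letters occurred in Klf2 and Jun and in 2.92% of all 32841 promoter windows of the table. The AP-1 letters occurred in Klf9 and in 6.75% of windows, and the GC box, found in Klf2, Klf4, Klf6 and Klf13, in 32.7%. The CACCC box was found in Klf2, Klf9 and Klf13 and in 52.0% of windows. The CArG box (1.47% of windows), the CRE (1.55%) and the TATA box (12.4%) were found in none of these 5 genes. Such matches describe the letters of this window and are not evidence of binding.

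The PyMT library held 12464 cell barcodes and 55547926 UMIs, and the KPC library 10236 and 44441942. A UMI (unique molecular identifier) marks 1 captured RNA molecule. Cell barcodes of 500 or more detected genes, with a mitochondrial share of UMIs below 10%, were kept: 11744 in PyMT at a median of 3978 UMIs and 9591 in KPC at a median of 3141. The libraries had 170 barcodes in common, and leaving these out kept each of the 48 log2 ratios between classes within its interval. Cells were put into classes by summed UMIs of marker pairs, in a fixed order, and 47.7% of PyMT and 42.6% of KPC cells met no cutoff and were called other. Venule, artery, tip, capillary and other cells are called BECs (blood endothelial cells) here. Markers that the rule did not use set artery cells apart: Hey1, Efnb2, Bmx and Sox17 summed to 1025 CPM in PyMT and 1172 in KPC artery cells, and to at most 269 and 354 elsewhere. The sum of Vwf, Lrg1, Vcam1 and Bst1 was highest in venule cells (3258 and 4120 CPM), and that of Esm1, Kcne3, Nid2 and Cxcr4 in tip cells (670 and 1151 CPM). Vcam1 taken singly did not follow the venule sum in PyMT. Its ratio over capillary cells, given below, was higher in artery than venule cells of PyMT and close between them in KPC. Rgcc, Cd36, Gpihbp1 and Lpl did not set capillary cells apart in PyMT, at 2064 CPM against 2104 in tip and 2008 in other cells, but did in KPC, at 3230 against 2015 and 1898. The name capillary is therefore that of its rule genes Car4 and Cd300lg. The class of Krt8 and Krt18 goes by these genes, because its 4 further epithelial markers (Epcam, Krt19, Krt7, Cldn4) summed to 4451 CPM in KPC and 40.1 CPM in PyMT. Immune markers summed to at most 128 CPM in any BEC class.

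Klf2 was highest in artery cells in both libraries. As UMIs per 1000000 UMIs of the class (CPM), artery cells had 1647 (95% interval 1535 to 1765) in PyMT and 2377 (2212 to 2551) in KPC, from 126 and 105 cells. Capillary cells had 621 CPM in PyMT and 1347 in KPC, and venule cells had 745 and 1003. Tip cells were the lowest BEC class at 377 (367 to 388) in PyMT and 468 (454 to 483) in KPC. The name tip is that of their rule genes Apln and Angpt2, and their place in a sprout was not measured. Intervals are exact Poisson intervals and, like all intervals below, cover counting error only, since 1 library per model leaves no replicate and no test. Lymphatic cells had 1053 CPM in PyMT and 873 in KPC, so they ranked second in PyMT but below capillary, other and venule cells in KPC. Of these lymphatic cells, 169 of 633 in PyMT and 273 of 802 in KPC also met the cutoff of another class. They are also cells that remained after podoplanin positive cells were depleted. The Krt8 and Krt18 class was the lowest, with 296 and 239 CPM. Neighbors in the order of Klf2 levels, over classes of at least 50 cells, had intervals of their ratio that left out 0 in both libraries.

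Among BECs, Klf4 was also highest in artery and lowest in tip cells of both libraries. Artery cells had 437 CPM (380 to 500) in PyMT and 903 (802 to 1012) in KPC. Tip cells had 53.4 (49.5 to 57.5) and 117 (110 to 125). Capillary cells differed most between the libraries, with 99.1 CPM in PyMT and 536 in KPC, and venule cells lay at 177 and 268. Lymphatic cells had 319 and 435 CPM. The Krt8 and Krt18 class had 117 and 104 CPM, which in PyMT was above capillary, other and tip cells. In KPC, fibroblast cells reached 400 CPM of Klf4, and their ratio to other cells (403 CPM) had an interval that included 0, as did that of pericyte over venule cells.

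**Figure D1:**
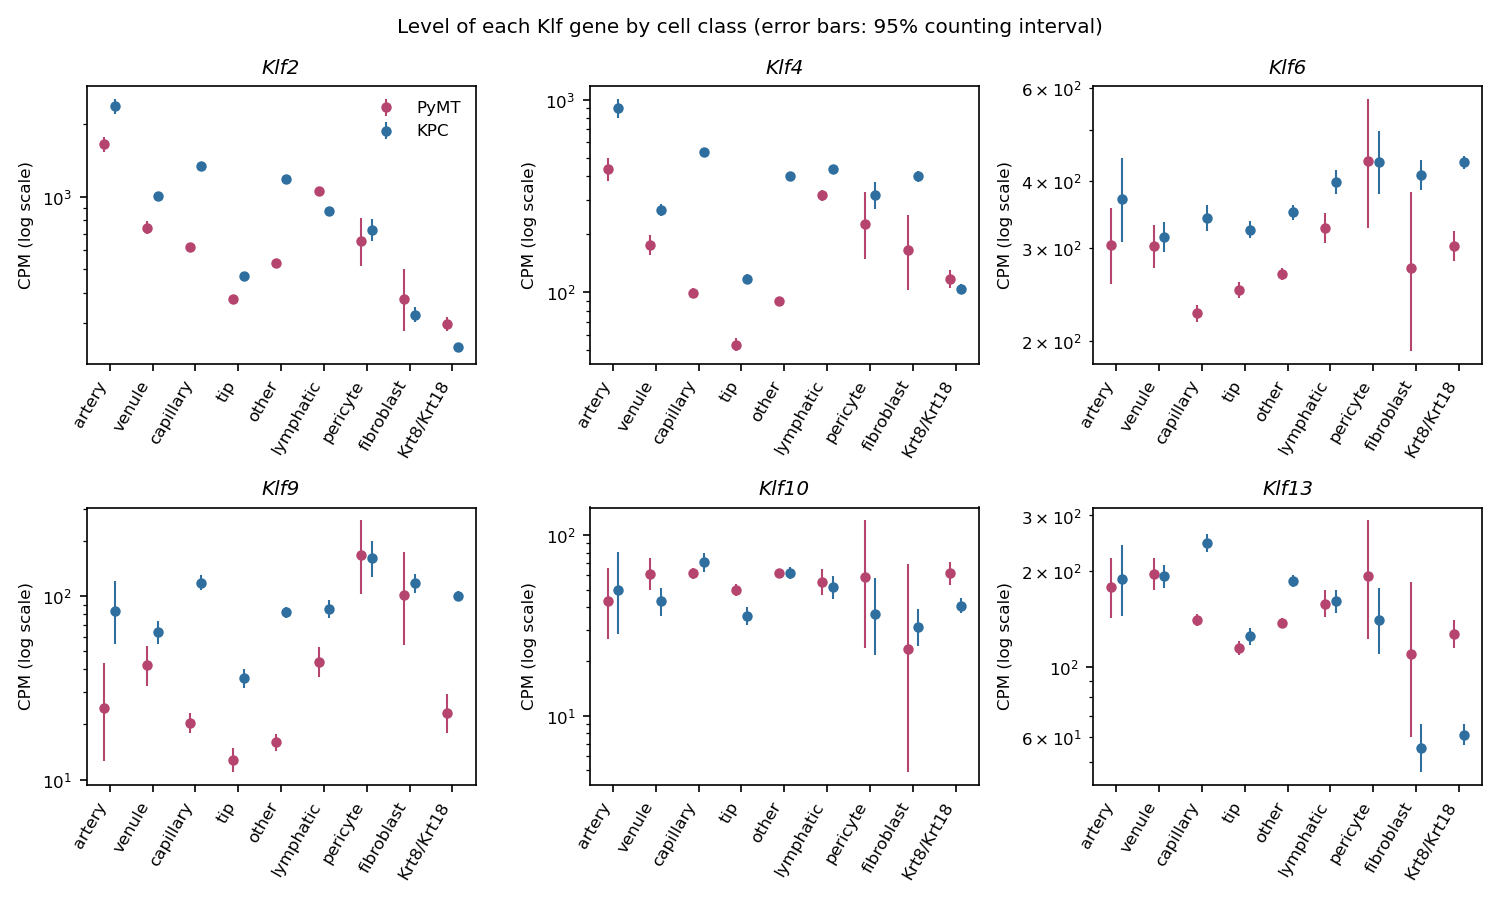
Level of each of the 6 Klf genes (y axis, CPM on a log scale) in 9 cell classes (x axis), with PyMT in pink and KPC in blue; points are class sums and bars are exact 95% Poisson intervals. Klf2 and Klf4 are highest in artery cells (1647 and 2377 CPM of Klf2) and lowest among BECs in tip cells (377 and 468), while Klf6 spans 225 to 437 CPM.

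The other 4 genes had no artery peak of that size. Klf6 ran from 225 CPM in PyMT capillary cells to 437 in PyMT pericyte cells (27 cells), with 303 (257 to 357) in PyMT and 371 (308 to 444) in KPC artery cells. Among BECs these artery values were nominally the highest, but their intervals held the level of PyMT venule cells (302) and of KPC capillary cells (342). Klf9 was low in PyMT BECs, from 12.8 CPM in tip to 42.0 in venule cells, and ran from 35.6 in tip to 119 in capillary cells in KPC. Its highest levels were in pericyte cells, at 168 and 161 CPM. Klf10 stayed between 35.7 and 70.7 CPM across the 5 BEC classes of both libraries, and Klf13 between 115 and 246 CPM, with tip cells the lowest of the BEC classes in both libraries for Klf13. Klf10 rested on 21 and 16 UMIs in artery cells and Klf9 on 12 and 27, so their artery intervals were wide.

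Artery over capillary cells, the log2 ratio of Klf2 was 1.41 (1.30 to 1.51) in PyMT and 0.82 (0.71 to 0.93) in KPC. For Klf4 it was 2.14 (1.92 to 2.35) and 0.75 (0.57 to 0.93). The arterial excess of both genes thus left out 0 in each library. It was larger in PyMT, where the levels of artery and of capillary cells were both lower. Past 2-fold higher were 2 of the 6 genes in PyMT (Klf2 and Klf4) and 0 in KPC, against 7.12% and 4.61% of all genes with at least 50 UMIs over both classes. None was past 2-fold lower, against 11.2% in PyMT and 10.4% in KPC. Among all genes, 3.03% in PyMT and 7.0% in KPC had a higher ratio than Klf2.

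Tip over capillary cells, Klf2 was at -0.72 (-0.77 to -0.67) in PyMT and -1.52 (-1.59 to -1.46) in KPC. Klf4 was at -0.89 (-1.03 to -0.76) and -2.20 (-2.31 to -2.09). Both genes were lower in tip cells of each library, and only 2.32% and 2.24% of all genes lay lower than Klf2. Past 2-fold lower were 0 of 6 genes in PyMT and 3 in KPC (Klf2, Klf4 and Klf9), against 0.958% and 6.12% of all genes. None was past 2-fold higher, against 0.47% and 2.76%. Klf6 stood apart, at 0.15 (0.073 to 0.22) in PyMT and -0.075 (-0.17 to 0.023) in KPC. The 2 classes differed in depth, with a median of 5845 UMIs in tip and 4254 in capillary cells of PyMT. In KPC the medians were 5449.5 and 1879.

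Of the 4 contrasts between classes, artery over tip cells gave the largest ratios of Klf2 and Klf4 in both libraries. Artery over tip, Klf2 was at 2.13 (2.02 to 2.23) in PyMT and 2.34 (2.23 to 2.46) in KPC, which are 4.37-fold and 5.08-fold. Klf4 was at 3.03 (2.80 to 3.26) and 2.95 (2.75 to 3.14), or 8.18-fold and 7.72-fold. Past 2-fold higher were 2 of 6 genes in PyMT and 3 in KPC (Klf2, Klf4 and Klf9), beside 8.81% and 9.22% of all genes. None was past 2-fold lower, beside 12.3% and 12.9%. Only 0.556% and 0.669% of genes exceeded Klf4. Fos and Jun were higher in artery than tip cells too, Fos at 1.57 in PyMT and 1.60 in KPC and Jun at 1.11 and 0.88.

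Venule over capillary cells, the libraries went opposite ways. Klf2 was at 0.26 (0.17 to 0.35) in PyMT and -0.43 (-0.49 to -0.36) in KPC, and Klf4 at 0.83 (0.64 to 1.03) and -1.0 (-1.12 to -0.88). Klf9 and Klf13 also changed sign, from 1.04 to -0.90 and from 0.48 to -0.35. Fos did the same, from 0.58 (0.50 to 0.66) in PyMT to -0.51 (-0.55 to -0.46) in KPC, and Jun from 0.25 to -0.90. Past 2-fold higher was 1 gene in PyMT (Klf9, 3.59% of all genes) and 0 in KPC (2.42%), and past 2-fold lower were 0 in PyMT (2.71%) and 1 in KPC (Klf4, 4.82%).

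**Figure D2:**
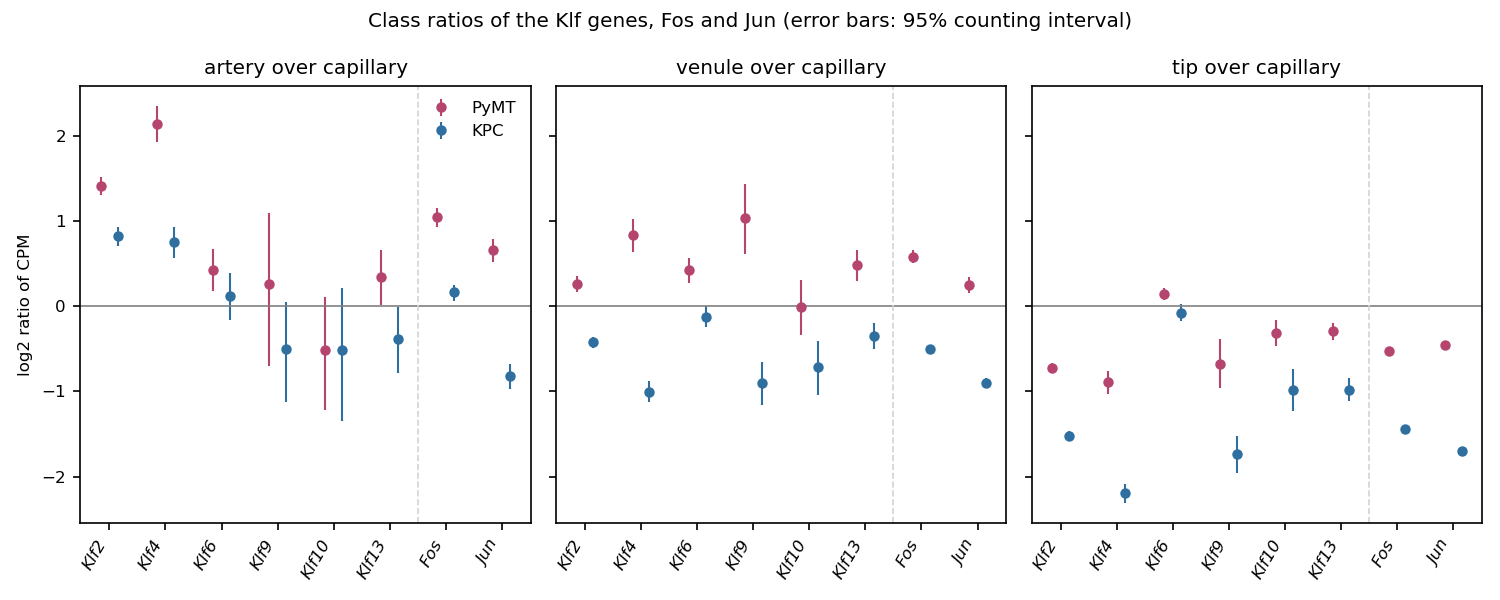
Log2 ratio of CPM (y axis) of the 6 Klf genes, Fos and Jun (x axis) for artery, venule and tip cells over capillary cells, with PyMT in pink, KPC in blue and 95% counting intervals as bars. Klf2 lies above 0 in artery cells (1.41 and 0.82) and below 0 in tip cells (-0.72 and -1.52) of both libraries, while venule ratios of Klf2, Klf4, Fos and Jun are positive in PyMT and negative in KPC.

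Fos and Jun shared part of this pattern. Fos had 1376 CPM in artery, 668 in capillary and 462 in tip cells of PyMT, and 3135, 2803 and 1036 in KPC. Artery over capillary, Fos was at 1.04 in PyMT and 0.16 (0.067 to 0.26) in KPC, and Jun at 0.66 and -0.82 (-0.97 to -0.68). In KPC, artery cells thus had more Klf2 and Klf4 than capillary cells while Jun was lower there and Fos differed little. Tip over capillary, Fos (-0.53 and -1.44) and Jun (-0.46 and -1.70) were lower along with Klf2 and Klf4.

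BECs of each library were next ranked by Fos plus Jun UMIs per 10000 of the cell and split into 3 groups of equal size (low, middle and high), at 3.40 and 13.5 in PyMT and at 17.3 and 53.6 in KPC. Klf2 was higher where Fos plus Jun was higher, at 329 CPM in the low and 909 in the high group over all PyMT BECs, and at 454 and 2151 in KPC. Klf4 was at 28.6 and 186 CPM in PyMT, and reached 852 in the high group of KPC. The log2 ratio of high over low group, by vessel class, ran from 0.82 to 1.48 for Klf2 in PyMT and from 1.77 to 2.08 in KPC. For Klf4 it ran from 2.14 to 2.68 and from 2.12 to 2.92. The steps were not even in PyMT, where Klf2 of artery cells had 894, 823 and 2294 CPM and that of venule cells 609, 423 and 1075 CPM from the low to the high group. The high group of KPC was shallow, with a median of 1638 UMIs per BEC against 3668 in the low group.

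Klf6 was also higher in the high group, by a log2 ratio of 1.46 (1.38 to 1.53) over all PyMT BECs and 1.24 (1.16 to 1.32) over KPC BECs. For Klf9 the ratio was 1.42 and 2.26, and for Klf13 0.57 and 1.45. Klf10 differed in sign between the libraries, at -0.17 (-0.30 to -0.034) in PyMT and 0.77 (0.58 to 0.96) in KPC. Within artery, venule, tip and capillary cells taken singly, every Klf10 interval included 0. Within other cells the Klf10 ratio was -0.21 (-0.41 to -0.017) in PyMT and 0.47 (0.20 to 0.73) in KPC, so both intervals left out 0 there.

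The class order of Klf2 and Klf4 was seen within these groups too. In the low group, artery over capillary Klf2 was at 1.11 (0.75 to 1.44) in PyMT and 1.02 (0.72 to 1.32) in KPC, from 30 and 34 artery cells, and Klf4 at 1.95 (0.96 to 2.80) and 1.33 (0.76 to 1.88). In the high group Klf2 was at 1.25 and 0.99, and Klf4 at 1.78 and 0.84. Tip over capillary, Klf2 ran from -0.70 to -0.44 over the 3 groups of PyMT and from -0.88 to -0.60 in KPC, and Klf4 from -0.94 to -0.58 and from -1.17 to -0.97. Artery cells were above and tip cells below capillary cells for both genes in each group of each library, with intervals that left out 0. In KPC the tip deficit of Klf2 in any group was smaller than the -1.52 over all cells.

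Venule over capillary Klf2 did not keep its sign. In KPC it was at 0.063 (-0.11 to 0.24) in the low, -0.34 (-0.44 to -0.23) in the middle and 0.044 (-0.060 to 0.15) in the high group. In PyMT it was at 0.55 (0.33 to 0.77), -0.12 (-0.33 to 0.075) and 0.16 (0.039 to 0.27). The Fos and Jun ratios of venule over capillary cells also had opposite signs in the libraries, and their part in the Klf2 result was not tested. Klf4 of KPC venule over capillary cells was at -0.21 (-0.59 to 0.16) in the low group, an interval that included 0, at -0.41 (-0.61 to -0.22) in the middle and at -0.81 (-0.998 to -0.615) in the high group.

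**Figure D3:**
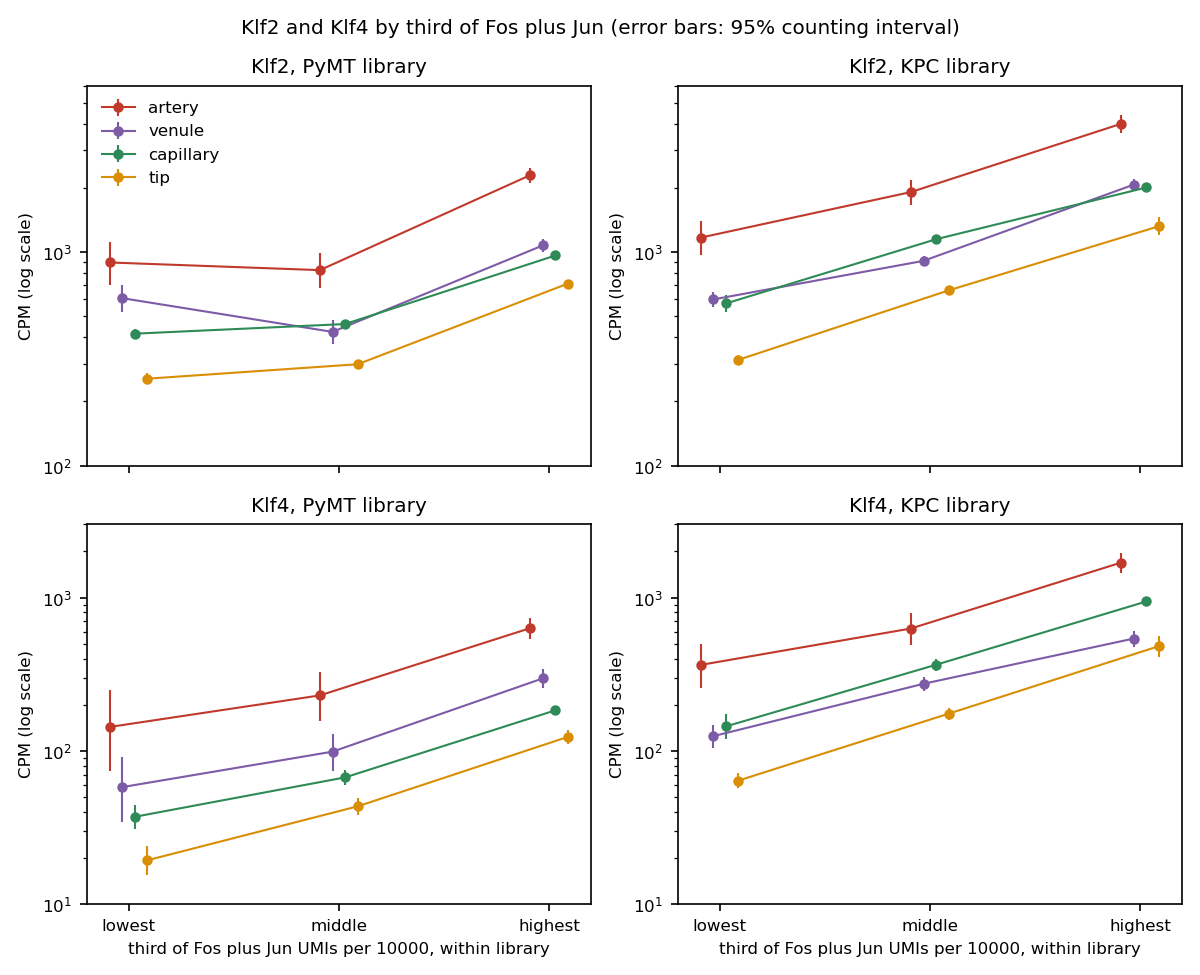
CPM of Klf2 (top) and Klf4 (bottom) on a log y axis in artery, venule, capillary and tip cells, by group of Fos plus Jun UMIs per 10000 within the library (x axis), with PyMT on the left, KPC on the right and 95% Poisson intervals as bars. Artery cells lie above and tip cells below capillary cells in each group, and each line ends higher than it starts, as for Klf2 of KPC capillary cells from 575 to 2008 CPM.

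Single cells were compared after each was thinned, that is, randomly reduced to 2000 of its UMIs, with shallower cells left out. Klf2 was then found in 85.0% (Clopper-Pearson 95% interval 76.9 to 91.2) of 107 PyMT and 85.1% (74.3 to 92.6) of 67 KPC artery cells, with medians of 2 and 3 UMIs. Before thinning these shares were 89.7% and 91.4%. Capillary cells held Klf2 in 52.8% and 74.0%, and tip cells in 39.5% (37.3 to 41.7) and 46.2% (43.4 to 49.0), against 67.7%, 80.6%, 60.3% and 67.9% before thinning. Thinning left out 19 and 38 artery cells, 230 and 700 capillary cells, and 50 and 65 tip cells. The highest single values in artery cells were 17 Klf2 UMIs of 2000 in PyMT and 12 in KPC, and capillary cells reached 17 and 15, so single cells of these classes overlapped.

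No class here is one known to lack Klf2 or Klf4, so no share that free RNA alone would give could be set. The Krt8 and Krt18 class, at median depths of 6939 and 12688 UMIs before thinning, held Klf2 in 35.8% (31.0 to 40.9) and 30.3% (27.1 to 33.7) of thinned cells. The PyMT tip interval for Klf2 overlapped it, and the KPC one lay above it. Klf4 was found in 9.43% of PyMT tip and 15.0% of PyMT capillary cells, below the 20.4% (16.5 to 24.9) of the Krt8 and Krt18 class, and in 19.4% of KPC tip cells against 18.8%. The part of free RNA in these low shares was not tested. Klf4 shares of artery cells (53.3% and 64.2%) and of KPC capillary cells (50.4%) lay above the interval of the Krt8 and Krt18 class.

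Cells with more Klf2 also held more Klf4, Fos and Jun. Among PyMT capillary cells, Klf4 was at 44.3 CPM (36.0 to 54.0) where no Klf2 UMI was found in 2000, 103 where 1 to 2 were found and 240 (208 to 275) where 3 or more were found. In KPC capillary cells it was at 235, 406 and 818 CPM. In tip cells, where few cells held a Klf4 UMI, it was at 23.0, 73.4 and 190 CPM in PyMT and 69.8, 166 and 320 in KPC. Fos moved likewise, at 436, 706 and 1281 CPM in PyMT and 1777, 2586 and 3925 in KPC capillary cells. Across single cells of a class, Pearson's r of log2(UMIs + 1) was 0.27 to 0.48 for Klf2 with Klf4 and 0.25 to 0.56 for Klf2 with Fos over the 4 vessel classes and both libraries. For Klf10 with Fos it was -0.075 to 0.065. These r values describe 67 to 2367 cells that share a library and a fixed depth.

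Klf2 was lower in PyMT than in KPC in all 4 vessel classes. PyMT over KPC, its log2 ratio was -1.12 (-1.17 to -1.06) in capillary, -0.53 (-0.67 to -0.39) in artery, -0.43 (-0.53 to -0.33) in venule and -0.31 (-0.37 to -0.25) in tip cells. Lymphatic cells went the other way, at 0.27 (0.20 to 0.34). For Klf4 it was -2.44 in capillary, -1.13 in tip, -1.05 in artery and -0.60 in venule cells. Past 2-fold lower were 3 of 6 genes in capillary cells (Klf2, Klf4 and Klf9, beside 9.36% of all genes), 2 in tip cells (Klf4 and Klf9, beside 3.70%), 2 in artery cells (Klf4 and Klf9, beside 4.10%) and 0 in venule cells (2.36%). Klf9 had 12 and 27 UMIs in artery cells, in sum under the 50 asked of the genes in that share. None was past 2-fold higher, where the shares of all genes were 3.73%, 1.58%, 1.71% and 1.19%. The capillary classes compared here share their rule genes, but further capillary markers set the class apart in KPC and not in PyMT, as given above.

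The same libraries differed in the stress and immediate early genes. In capillary cells Fos was at 668 CPM in PyMT and 2803 in KPC, Jun at 602 and 2229, and the heat shock gene Hspa1a at 15.0 and 346. Of 14 immediate early genes, 13 were past 2-fold lower in PyMT capillary cells (9.36% of all genes), 7 in artery (4.10%), 7 in tip (3.70%) and 3 in venule cells (2.36%). The median UMIs of capillary cells were also 4254 against 1879.

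Cells with like Fos plus Jun were then compared, after thinning to 2000 UMIs. This left out 230 of 2597 PyMT and 700 of 1297 KPC capillary cells, so the bins and the ratio over all cells cover different cells. The capillary cells that remained had means of 1.27 Klf2 UMIs of 2000 in PyMT and 2.49 in KPC before binning. With 2 to 4 Fos plus Jun UMIs, Klf2 of capillary cells was at 614 CPM in PyMT (743 cells) and 617 in KPC (77 cells), a log2 ratio of -0.0074 (-0.31 to 0.31), and those of tip and venule cells were 0.018 (-0.18 to 0.21) and 0.017 (-0.35 to 0.38). With 0 to 1 UMI, capillary cells were at -0.58 (-0.87 to -0.28) and tip cells at 0.28 (0.053 to 0.51). With 5 or more, capillary cells were at -0.33 (-0.45 to -0.21), although the mean of Fos plus Jun was still 7.86 in PyMT against 12.9 in KPC there. Klf4 of capillary cells remained lower in PyMT in each bin, at -1.67 (-2.32 to -0.96), -0.99 (-1.55 to -0.38) and -1.45 (-1.68 to -1.22). In tip cells Klf4 was at -1.05, -0.53 and -0.79, with intervals below 0. With 1 library each, the difference between Klf2 and Klf4 here has no test. These bins were chosen after seeing the data.

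**Figure D4:**
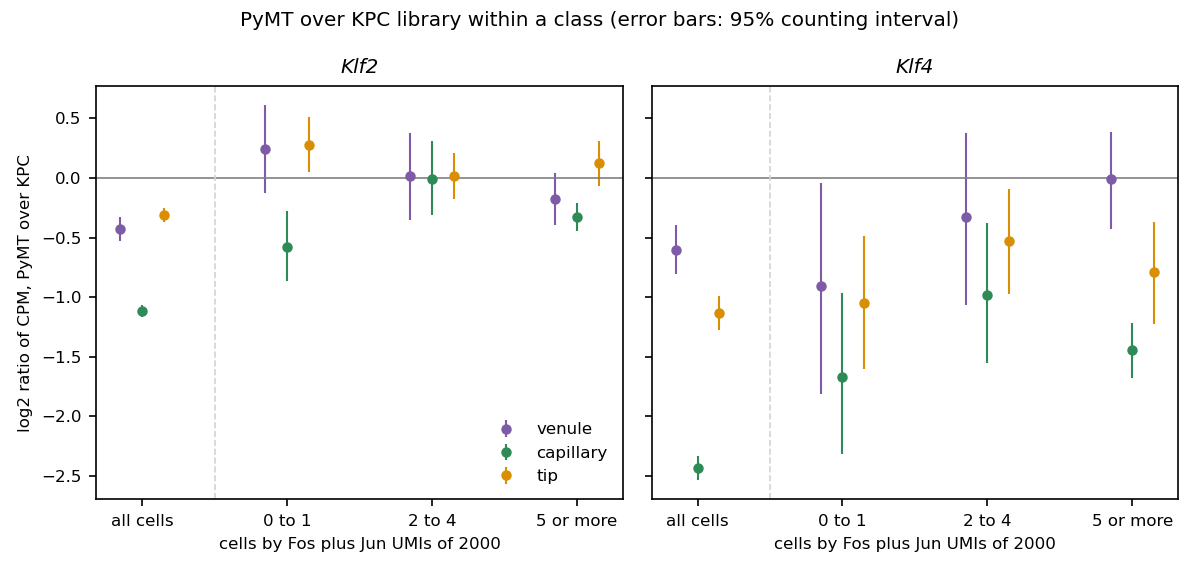
Log2 ratio of CPM, PyMT over KPC (y axis), of Klf2 and Klf4 in venule, capillary and tip cells, for all cells and for cells of 0 to 1, 2 to 4 and 5 or more Fos plus Jun UMIs after thinning to 2000 (x axis), with 95% counting intervals as bars. In capillary cells Klf2 is at -1.12 over all cells and between -0.58 and -0.0074 in the bins, whereas Klf4 is between -1.67 and -0.99 in the bins. The bins leave out cells under 2000 UMIs.

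Of the 11 other Klf genes, 3 to 5 had enough UMIs in a contrast. Klf7 and Klf3 were the most abundant of these within BECs, and none with enough UMIs passed 2-fold in the same direction in both libraries. In PyMT, 2 of 4 were past 2-fold higher artery over tip and 1 of 4 artery over capillary, beside 8.81% and 7.12% of all genes. The KPC counts were 0 of 4 and 0 of 3, beside 9.22% and 4.61%. Tip over capillary, 1 of 4 was past 2-fold lower in KPC and 0 of 5 in PyMT, beside 6.12% and 0.958%. Of 17 genes of flow sensing and the MEKK3 to ERK5 cascade, Heg1 and Flt4 passed 2-fold in the same direction in both libraries. Artery over tip, 2 of the 17 in PyMT and 3 in KPC were past 2-fold higher, beside 8.81% and 9.22% of all genes. Past 2-fold lower were 0 and 1, beside 12.3% and 12.9%. Artery over capillary, 1 and 3 were higher (7.12% and 4.61%) and 0 and 2 lower (11.2% and 10.4%). Venule over capillary, 0 and 0 were higher (3.59% and 2.42%) and 1 and 3 lower (2.71% and 4.82%). For tip over capillary, 0 and 0 were higher (0.47% and 2.76%) and 0 and 3 lower (0.958% and 6.12%). Heg1 encodes a membrane protein tied to the CCM complex, which restrains this cascade. Artery over capillary it was at 1.98 in PyMT and 1.71 in KPC, and artery over tip at 2.66 and 3.0. Flt4, the VEGFR3 receptor, was past 2-fold lower in venule than capillary cells, at -1.09 and -1.32. The others, among them Piezo1, Map3k3, Map2k5, Mapk7 and the 3 Mef2 genes, passed 2-fold in the same direction in both libraries in none of the 4 contrasts. The list's median artery over tip was 0.31 in PyMT and 0.26 in KPC, where the median of all genes was -0.013 in both.

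A list of 20 genes known as KLF2 or KLF4 targets mixes genes that the factors raise and lower. Artery over tip, 8 of 16 measured members were past 2-fold higher in each library, beside 8.81% of all genes in PyMT and 9.22% in KPC. Past 2-fold lower was 1 (Angpt2, which itself defines the tip class), beside 12.3% and 12.9%. The medians were 1.03 in PyMT and 0.93 in KPC. Past 2-fold higher in both libraries were Gja4, the gap junction protein connexin 37 (6.70 and 6.78), Plat, the tissue plasminogen activator (1.86 and 2.46), Slc9a3r2 (1.73 and 1.90) and Timp3, a metalloproteinase inhibitor (1.10 and 2.10). Vcam1, a leukocyte adhesion molecule that KLF2 is known to lower, was higher too, at 3.36 and 3.74. Nos3, the endothelial nitric oxide synthase, was at 0.73 and 1.24.

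Artery over capillary, 5 of 17 listed targets in PyMT and 5 of 16 in KPC were past 2-fold higher, beside 7.12% and 4.61% of all genes, and 0 and 3 were past 2-fold lower, beside 11.2% and 10.4%. Those higher in both were Gja4 (4.56 and 3.20), Edn1 (3.42 and 3.37), which encodes the vasoconstrictor endothelin 1, Vcam1 (2.50 and 4.35) and Plat (1.69 and 2.02). Edn1 and Vcam1 are genes that KLF2 is known to lower, and both were high in artery cells beside high Klf2. Thbd, which encodes thrombomodulin, was at 0.19 in PyMT and -1.60 in KPC. Angpt2, also on the list, was not used by the artery rule but took cells out of the capillary class.

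Tip over capillary, 3 of 17 listed targets in PyMT and 8 of 17 in KPC were past 2-fold lower, beside 0.958% and 6.12% of all genes, and 2 and 3 past 2-fold higher, beside 0.47% and 2.76%. Angpt2, which itself defines the tip class, is on the list, so its own ratio here follows from the class rule. Gja4 (-2.15 and -3.58), Thbd (-1.06 and -2.37) and the water channel gene Aqp1 (-1.01 and -1.36) were lower in tip cells of both libraries, as Klf2 was. Edn1 was higher, at 1.17 and 2.98. Venule over capillary, 6 of 18 listed targets in each library were past 2-fold higher, beside 3.59% and 2.42% of all genes. Those past 2-fold lower were 1 in PyMT and 5 in KPC, beside 2.71% and 4.82%. Sele (4.47 and 3.59), Nqo1 (2.88 and 1.87), Edn1 (2.13 and 1.51) and Vcam1 (1.76 and 4.43) were higher in both. So was Angpt2 (1.49 and 2.17), which the venule rule did not use but which took cells out of the capillary class. Gja4 (-3.37 and -4.06) was lower in both.

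**Figure D5:**
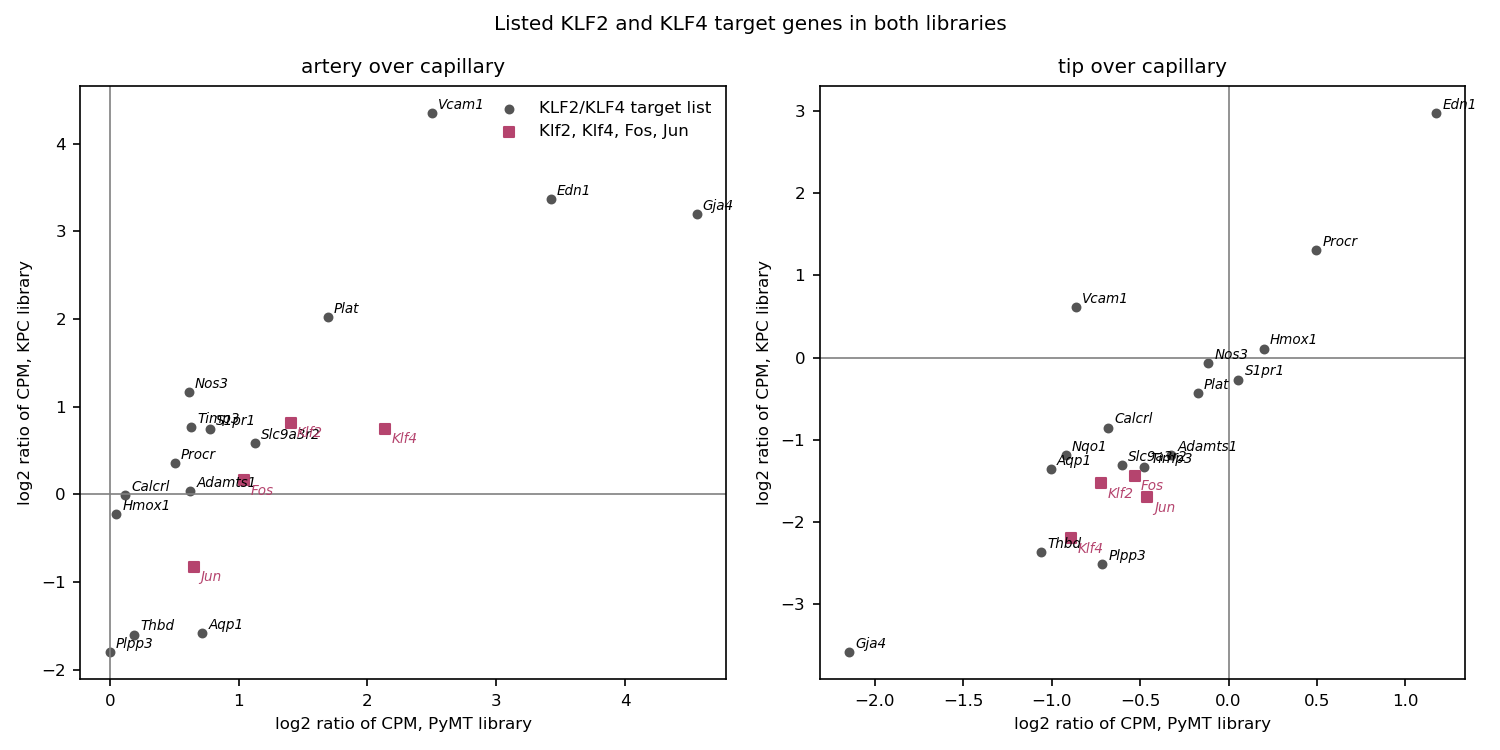
Log2 ratio of CPM in the PyMT library (x axis) against the KPC library (y axis) for listed KLF2 and KLF4 targets (grey points) and Klf2, Klf4, Fos and Jun (pink squares), artery over capillary cells on the left and tip over capillary cells on the right; Angpt2, a marker of the tip class, is left out. Gja4 lies far above 0 in artery cells (4.56 and 3.20) and far below 0 in tip cells (-2.15 and -3.58), and Edn1 lies above 0 in both panels.

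The immediate early genes were also higher in artery than tip cells. Artery over tip, 10 of its 14 genes in PyMT and 9 in KPC were past 2-fold higher, beside 8.81% and 9.22% of all genes, with medians of 1.24 and 1.45. Tip over capillary, 12 of 14 were past 2-fold lower in KPC and 0 in PyMT, beside 6.12% and 0.958% of all genes. Artery over capillary, 5 were past 2-fold higher in PyMT (7.12% of all genes), at a median of 0.85, and 0 in KPC (4.61%), at a median of -0.098, where Klf2 was at 0.82 and Klf4 at 0.75.

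The heat shock, glucocorticoid and TGF-beta lists moved less evenly. Heat shock genes had medians between -0.23 and 0.059 in all 4 contrasts. Of the measured ones, 2 of 9 in PyMT and 2 of 10 in KPC were past 2-fold higher artery over tip, beside 8.81% and 9.22%. Those past 2-fold lower were 0 and 1, beside 12.3% and 12.9% of all genes. Hspa1a was past 2-fold higher artery over tip in both libraries (2.87 and 2.27). Artery over capillary, 1 of 4 measured glucocorticoid-responsive genes was past 2-fold higher and 1 lower in PyMT, beside 7.12% and 11.2% of all genes. In KPC all 4 were past 2-fold lower, beside 10.4%. Of these genes Fkbp5 was lower in both libraries, at -1.17 and -1.46, where Klf9 was at 0.27 (-0.71 to 1.10) and -0.51 (-1.12 to 0.055). Of 5 TGF-beta responsive genes, 2 in PyMT and 1 in KPC were past 2-fold higher artery over tip, beside 8.81% and 9.22%. In each library 1 was past 2-fold lower, beside 12.3% and 12.9% of all genes. The inhibitory Smad7 was higher artery over tip, at 2.20 and 2.12, and Tgfbi lower, at -2.55 and -1.76. Klf10 was at -0.21 (-0.91 to 0.42) and 0.47 (-0.36 to 1.19) there. Tgfbi (2.15 and 2.89) was higher in venule than capillary cells. In that contrast 2 of the 5 genes were past 2-fold higher in each library, beside 3.59% and 2.42% of all genes. Those past 2-fold lower were 0 in PyMT and 1 in KPC, beside 2.71% and 4.82%.

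Genes of like pattern were ranked by Pearson's r over 16 class sums of both libraries, after each gene's mean log2(CPM + 5) of the library was subtracted. The points share libraries and depth, and the r values are descriptions. Klf2 was most like Wwc2 (0.96), Utrn (0.95), Ltbp4 (0.94), Igtp (0.93) and Elovl5 (0.93) among 8624 genes. Utrn, which encodes utrophin, was at 221 CPM in artery and 62.3 in tip cells of PyMT and at 374 and 82.9 in KPC. Klf4 was most like Ypel3 (0.92), St3gal1 (0.92), Plscr4 (0.91), Rspry1 (0.90) and Zbtb4 (0.90). Fos ranked 12 in likeness to Klf4 (0.88), and 1520 in likeness to Klf2 (0.63). Jun ranked 149 (0.75) and 1239 (0.67).

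Klf9 was most like Egr1 (0.82) and Fosb (0.81), both immediate early genes, then Gstm1, Stk38 and Abcc5 (0.76 to 0.79), and Fos ranked 6. Klf13 was most like Sf3b1 (0.94), Osbpl9, Zfp68, Zfyve9 and Ddx5 (0.93), and its r with Klf2 was 0.83. Klf6 was most like Ift43 (0.91), Churc1, Irf2bp2, Golim4 and Esyt2 (0.84), and its r with Klf2 was -0.12. Klf10 was most like Sgta (0.81), Dnase1l1, Xab2, Hnrnpl and Capza2 (0.78). Klf2 and Klf4 had an r of 0.81 with each other, by which Klf4 ranked 305 in likeness to Klf2 and Klf2 ranked 51 in likeness to Klf4.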

How the data were processed

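The 2 libraries were analysed, 1 per tumor model, grouped by the labelled tumor. The authors aligned reads to mm10 and deposited unnormalized UMI counts per gene and cell barcode, made with Cell Ranger (3.0 per the submitters' processing notes, 3.0.2 in the matrix header). The methods name 2 kit versions for these libraries.

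Cell barcodes of 500 or more detected genes, with a mitochondrial share below 10%, were kept. Classes followed UMI sums in this order: Krt8 and Krt18 (5), Col1a1 and Col1a2 (10), Mmrn1 and Prox1 (3), Notch3 and Higd1b (2), Ackr1 and Selp (3), Gja5 and Sema3g (2), Apln and Angpt2 (3), Car4 and Cd300lg (2). Counts were summed per class and given as CPM. Intervals are exact at 95%: Poisson for levels, the binomial split of both sums for ratios, Clopper-Pearson for shares. No doublet caller was run, and cells meeting several classes (10.5% in PyMT, 7.59% in KPC) or of very high UMIs were left out as alternatives. Cells meeting several classes were unevenly spread. They made up 189 of 360 venule and 797 of 1991 tip cells in PyMT, and 142 of 640 and 184 of 1302 in KPC. By the order of the rule, capillary and other cells held none. With no replicates no test was run, and past 2-fold means a log2 ratio above 1 or below -1 among genes with at least 50 UMIs over both groups. Named genes were the 6 genes, Fos, Jun, listed genes past 2-fold in the same direction in both libraries, and the 5 genes most alike among those of at least 20 CPM in 1 class. Some listed genes outside that rule (Nos3, Thbd, Klf3, Klf7 and the cascade genes) were named after their values were seen. Members and lists were chosen with earlier results of these data known. Functions were tested on simulated counts. Python 3.11.15, numpy 2.4.6, scipy 1.17.1 and pandas 2.3.3 were used. Some items are not reported here.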

Additional observations from a re-analysis of the deposited data

Results flagged for a closer look

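Several ratios had opposite signs in the 2 libraries, with intervals that left out 0 in both; the difference between libraries was not tested. Venule over capillary cells, the log2 ratio in PyMT and KPC was 0.26 and -0.43 for Klf2, 0.83 and -1.0 for Klf4, 1.04 and -0.90 for Klf9, and 0.48 and -0.35 for Klf13. Artery over capillary cells, Klf13 was at 0.35 and -0.38.

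The cell barcodes left out by the filter also held Klf2 and Klf4. In the 720 left out of PyMT, Klf2 was at 548 CPM (498 to 603) and Klf4 at 117 (94.4 to 144), beside 545 and 102 CPM in the kept cells. In the 645 left out of KPC, Klf2 was at 1134 CPM (1049 to 1223) and Klf4 at 421 (371 to 477), beside 746 and 281 CPM in the kept cells. The left-out sets pool unlike barcodes. Klf2 was at 813 CPM in PyMT and 1450 in KPC under 500 genes, and at 465 and 651 where the mitochondrial share was 10% or more. Kept cells include non-endothelial classes, and kept BECs were at 532 and 974 CPM. The median of all left-out barcodes was 880 UMIs in PyMT and 650 in KPC.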

How the results depend on the processing

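Leaving out barcodes found in both libraries, or taking immediate early, heat shock and mitochondrial genes out of the total, kept each of the 48 class ratios within its interval. Other settings moved values, and the cause was not tested. With class cutoffs raised by 2 UMIs, the Klf2 and Klf4 log2 ratios in PyMT were 1.57 and 2.36 artery over capillary and 0.40 and 1.22 venule over capillary, and Klf2 was -0.81 tip over capillary; in KPC Klf2 was 0.94 artery over capillary, and both genes were -0.30 and -0.87 venule over capillary and -1.71 and -2.35 tip over capillary. Klf6 artery over tip turned to -0.15 in PyMT.

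In the lowest group of Fos plus Jun, PyMT Klf2 was 1.11 artery and 0.55 venule over capillary. In KPC, Klf2 and Klf4 were 1.02 and 1.33 artery over capillary and -0.88 and -1.17 tip over capillary, and venule over capillary Klf2 turned to 0.063 and Klf4 was -0.21. Of ratios whose interval over all cells left out 0, Klf6 in PyMT also turned, to -0.34 artery over capillary and -0.90 artery over tip. In KPC so did Klf13 artery over capillary (0.33), Klf9 venule over capillary (0.45) and Klf13 venule over capillary (0.23). Ratios whose interval had included 0 changed sign too. In KPC these were Klf6, at -0.87 artery over tip, -0.20 artery over capillary, 0.67 tip over capillary and 0.35 venule over capillary, and Klf10 artery over tip (-0.80).

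In cells of 2000 to 5000 UMIs, a setting added after seeing the data, PyMT Klf4 was 2.36 artery over capillary, Klf2 and Klf4 0.35 and 1.21 venule over capillary, and Klf2 -0.66 tip over capillary. In KPC, Klf4 was 0.57 artery over capillary and -1.87 tip over capillary, Klf2 and Klf4 were -0.20 and -0.81 venule over capillary, and Klf9 artery over tip turned to -0.065. Without cells meeting more than 1 class, PyMT Klf2 was 0.51 venule over capillary, Klf2 and Klf4 were -0.89 and -1.08 tip over capillary, and in KPC they were -0.16 and -0.75 venule over capillary and -1.64 and -2.32 tip over capillary. PyMT Klf2 venule over capillary was 0.35 without cells above the 95th percentile of UMIs and 0.39 as a mean over cells. As a mean over cells, KPC Klf4 was 0.53 artery over capillary, and Klf2 and Klf4 were -1.82 and -2.43 tip over capillary. Under a stricter cell filter they were -0.30 and -0.85 venule over capillary and -1.33 and -1.95 tip over capillary in KPC. With size factors KPC Klf2 was -1.46 tip over capillary, and PyMT over KPC Klf2 was -0.24 in tip and -0.98 in capillary cells and Klf4 -2.30 in capillary cells.

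After thinning, the Fos plus Jun groups had other cuts, at 5 and 15 per 10000 in PyMT and at 10 and 40 in KPC. Their sizes from low to high were unequal, at 4939, 2005 and 2411 BECs in PyMT and 1529, 1683 and 1319 in KPC. High over low group was then 1.37 for Klf2 and 2.27 for Klf4 in PyMT tip cells. In KPC it was 1.55 and 1.26 in venule cells, 1.78 and 2.45 in tip cells, 2.87 for Klf4 in artery cells and 1.26 for Klf2 in capillary cells. PyMT over KPC at 0 to 1, 2 to 4 and 5 or more Fos plus Jun UMIs, bins added after seeing the data, Klf2 was 0.24, 0.017 and -0.17 in venule, 0.28, 0.018 and 0.12 in tip and -0.58, -0.0074 and -0.33 in capillary cells. Klf4 was -0.91, -0.33 and -0.010 in venule cells, -0.53 and -0.79 in the upper bins of tip cells, and -1.67, -0.99 and -1.45 in capillary cells.

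With genes of at least 10 UMIs, the shares past 2-fold higher and lower in PyMT were 10.7% and 16.2% artery over capillary, 6.88% and 5.54% venule over capillary, 1.70% and 2.84% tip over capillary and 12.6% and 16.9% artery over tip. In KPC they were 8.10% and 15.7%, 4.83% and 7.54%, 4.61% and 9.09%, and 13.2% and 18.2%. No paired analysis was possible because each model has 1 library. Artery classes of 126 and 105 cells limit Klf9 and Klf10, and mice, digestion and library cannot be told apart within a model.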
